A study of Mus musculus with 8 samples.

Results

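Collagens, laminins and the proteins of elastic fibres form the solid part of the extracellular matrix that surrounds heart muscle cells. The 53 genes described here were chosen by symbol among the 12392 protein-coding genes of the deposited table, which holds 14578 genes in all. They are the numbered collagen alpha chains, the laminin alpha, beta and gamma chains, the nidogens Nid1 and Nid2, perlecan (Hspg2), elastin (Eln), the fibrillins, the fibulins, the emilins and the microfibril-associated genes Mfap2, Mfap4 and Mfap5. They were kept apart by role as 8 fibrillar collagens, 12 fibril-associated and other collagens outside the basement membrane, 21 basement membrane genes and 12 elastic fibre genes.

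RNA of the left ventricle was sequenced in 8 libraries from mice of 6 months on a C57 background. The mdx sln+/- group has 3 libraries from mice that carry the mdx mutation of Dmd and lack 1 functional copy of Sln, which encodes sarcolipin, an inhibitor of the calcium pump SERCA. The mdx group has 3 libraries from mice with the Dmd mutation, which removes the muscle membrane protein dystrophin, and both Sln copies. The WT group has 2 libraries. The labels give neither sex nor pooling. They also leave unsaid whether each library is a mouse of its own, and a p-value then covers the spread among these libraries, which may be technical. The comparisons ask how the matrix genes differ between each mdx genotype and WT, and whether losing 1 Sln copy alters them in the mdx ventricle.

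Fibrillar collagens I, III and V assemble into the fibrils that carry tension, and their accumulation in the heart is known as fibrosis. Collagen VI forms beaded filaments between these fibrils and the cell surface. Basement membranes are sheets of laminin and collagen IV joined by nidogen and perlecan, and in muscle laminin binds dystroglycan, which dystrophin links to the cytoskeleton. Elastic fibres are made of elastin on a scaffold of fibrillin microfibrils, with fibulins and emilins at their interface.

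Levels are given as log2(abundance + 1) per gene, from the log2 values that the authors deposited per transcript, and libraries of a group are listed in the order 1, 2, 3. Changes are log2 fold changes on that scale with their standard error after ±, from limma with Benjamini-Hochberg adjustment over 13783 genes and a threshold of 0.05. The scale understates changes of low genes. Because division by length is not given, levels of single genes are compared between libraries and not between genes. Sums over cell type markers and transcript shares of a gene do weigh features together, so they depend on that unknown. Dmd fitted its labels, with 4.09, 4.10 and 4.25 in mdx sln+/-, 4.30, 4.32 and 4.22 in mdx, and 6.60 and 6.98 in WT. Sln itself was not analysed here, so its lost copy was not checked against the labels. Y-linked genes were low in mdx sln+/- 3 and WT 2, where the log2 level of Eif2s3y was 1.31 and 0.92, against 3.29 to 6.11 in the other 6 libraries. Library names come in an indexed style (mdx sln+/- 1 and 2, mdx 1 and 2) and a plain style (mdx sln+/- 3, mdx 3 and both WT libraries), so name style and genotype are partly confounded. The deposited values also lack any mean difference between library 2 and libraries 1 and 3 over the mdx genotypes, as a correction before deposit would leave them, and the model used here includes that contrast.

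Of the 53 genes, 49 reached a value of 1 in at least 2 libraries and were tested: 7 of 8 fibrillar collagens, 11 of 12 other collagens, 20 of 21 basement membrane genes and 11 of 12 elastic fibre genes. Col11a2, Col28a1, Lamc3 and Mfap2 did not, and their log2 levels lay between 0.11 and 1.28 in all 8 libraries. In mdx sln+/- against WT, 18 of the 49 rose and 1 fell, against 11.3% of all genes tested that rose and 7.65% that fell. In mdx against WT, 17 of the 49 rose and 1 fell, against 9.56% and 8.15% of all genes tested. The gene that fell, Col22a1, met the filter only through WT, and Col27a1, among the rises, only through the mdx genotypes. All 18 genes called in mdx were also called in mdx sln+/-, where Col14a1 was called in addition, and these comparisons share the WT libraries. In mdx sln+/- against mdx none of the 49 was called, and 0.0% of all genes tested were. Counting libraries alone, 23 of the 49 were higher and 7 lower in every mdx sln+/- library than in both WT libraries, against 36.3% and 23.5% of all genes tested. In mdx against WT 25 were higher and 4 lower without overlap, against 27.8% and 23.6% of all genes tested. The median change of the 49 genes was 0.32 in mdx sln+/- against WT and 0.37 in mdx against WT, where the medians of all genes tested were 0.05 and 0.02.

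Fibrillar collagens rose in both mdx genotypes: 6 of the 7 tested genes passed in each, and none fell. Of all genes tested, 11.3% rose and 7.65% fell in mdx sln+/- against WT, and 9.56% and 8.15% in mdx against WT. The median change of the class was 0.70 in mdx sln+/- and 0.77 in mdx. Both medians are the change of Col27a1, 1 of the 6 genes, which met the filter only through the mdx genotypes. Col3a1, the chain of collagen III, which is found with collagen I in the cardiac interstitium, had log2 levels of 7.88, 8.12 and 8.16 in mdx sln+/-, 8.42, 7.87 and 7.52 in mdx, and 6.51 and 6.65 in WT. Every library of both mdx genotypes lay above both WT libraries, and mdx 1 was the highest and mdx 3 the lowest of the 6. Col3a1 rose by 1.48 ± 0.24 in mdx sln+/- (adjusted p = 0.00896) and by 1.36 ± 0.24 in mdx (adjusted p = 0.0122), or 2.78-fold and 2.56-fold (limma). Col1a1, which encodes the alpha 1 chain of collagen I, had log2 levels of 6.44, 6.76 and 6.61 in mdx sln+/-, 7.06, 6.47 and 6.33 in mdx, and 5.68 and 5.73 in WT. Again no mdx library of either genotype reached down to WT, and mdx 1 stood highest. Col1a1 rose by 0.90 ± 0.21 in mdx sln+/- (adjusted p = 0.0269) and by 0.92 ± 0.21 in mdx (adjusted p = 0.0253) (limma). Col1a2, the alpha 2 chain that joins Col1a1 in the collagen I trimer, missed the threshold, with 0.59 ± 0.18 in mdx sln+/- (limma, adjusted p = 0.06) and 0.62 ± 0.18 in mdx (adjusted p = 0.0552). Its log2 levels were 6.82, 7.14 and 6.98 in mdx sln+/-, 7.37, 6.84 and 6.81 in mdx, and 6.30 and 6.48 in WT, also without overlap with WT.

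The chains of collagen V, which sets the diameter of collagen I fibrils, all rose. Col5a3 had log2 levels of 3.91, 4.06 and 4.02 in mdx sln+/-, 4.52, 4.18 and 4.03 in mdx, and 2.85 and 2.88 in WT. Its WT libraries were nearly level and lay clear of every mdx library of either genotype. Col5a3 rose by 1.13 ± 0.14 in mdx sln+/- (adjusted p = 0.00483) and by 1.38 ± 0.14 in mdx (adjusted p = 0.00301) (limma). Col5a2 rose by 0.65 ± 0.15 in mdx sln+/- (adjusted p = 0.028) and by 0.59 ± 0.15 in mdx (adjusted p = 0.0377), and Col5a1 by 0.47 ± 0.12 in mdx sln+/- (adjusted p = 0.0399) and by 0.55 ± 0.12 in mdx (adjusted p = 0.025) (limma). Col27a1, a fibrillar collagen known mainly from cartilage, was low, with log2 levels of 1.34, 1.33 and 1.73 in mdx sln+/-, 1.52, 1.68 and 1.43 in mdx, and 0.96 and 0.59 in WT. It rose by 0.70 ± 0.18 in mdx sln+/- (adjusted p = 0.038) and by 0.77 ± 0.18 in mdx (adjusted p = 0.0287) (limma). Only libraries of the mdx genotypes brought Col27a1 to the filter value of 1, so it was tested through the groups where it is high. Col3a1 and Col5a2 are neighbours on chromosome 1, 24614 bases apart and on opposite strands (GRCm38/mm10, GENCODE M21).

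The 250 bases in front of the RefSeq start are printed for 4 genes that rose together in both genotypes, Col3a1 and Col5a3 here and Col6a3 and Col15a1 from the next classes, so that their upstream windows can be set side by side (RefSeq, GRCm38.p6, 5′ to 3′ on the strand of the gene). Capitals mark matches, on either strand, to CCAAT (the CCAAT box), to GGGCGG (the GC box) and to TATAAA (the TATA box), and no match overlaps another. The windows lie at chr1:45311288-45311537 on the plus strand (Col3a1), chr9:20815068-20815317 on the minus strand (Col5a3), chr1:90843972-90844221 on the minus strand (Col6a3) and chr4:47207762-47208011 on the plus strand (Col15a1).
Col3a1: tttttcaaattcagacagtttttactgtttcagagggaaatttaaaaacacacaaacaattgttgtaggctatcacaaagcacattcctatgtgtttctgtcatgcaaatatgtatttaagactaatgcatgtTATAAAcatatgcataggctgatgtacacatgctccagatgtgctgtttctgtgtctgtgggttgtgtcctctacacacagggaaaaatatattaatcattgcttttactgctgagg
Col5a3: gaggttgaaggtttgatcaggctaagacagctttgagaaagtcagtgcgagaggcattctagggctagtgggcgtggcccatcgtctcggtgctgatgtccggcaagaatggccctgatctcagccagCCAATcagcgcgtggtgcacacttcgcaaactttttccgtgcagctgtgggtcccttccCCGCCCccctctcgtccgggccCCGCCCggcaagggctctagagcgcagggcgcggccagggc
Col6a3: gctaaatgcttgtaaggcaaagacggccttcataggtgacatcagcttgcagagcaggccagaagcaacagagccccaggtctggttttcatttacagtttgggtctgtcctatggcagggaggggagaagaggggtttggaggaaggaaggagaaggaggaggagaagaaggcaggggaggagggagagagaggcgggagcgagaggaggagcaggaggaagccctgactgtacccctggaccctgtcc
Col15a1: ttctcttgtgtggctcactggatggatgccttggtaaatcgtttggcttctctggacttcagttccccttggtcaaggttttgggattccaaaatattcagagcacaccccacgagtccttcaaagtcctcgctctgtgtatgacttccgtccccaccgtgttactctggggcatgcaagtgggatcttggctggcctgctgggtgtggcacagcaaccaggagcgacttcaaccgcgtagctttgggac
Col3a1 holds 1 TATAAA, Col5a3 holds 1 CCAAT and 2 copies of the GC box on the reverse strand (CCGCCC), and Col6a3 and Col15a1 hold none of the 3 motifs. No motif is thus present in all 4 windows. RefSeq windows were found for 37 of the 53 genes, 44 windows in all. Among these, 26 of 44 (59.1%) held a GC box, against 32.7% of all 32851 RefSeq windows of the same length. That background was not limited to the genes tested here, and windows of 1 gene can overlap. For CCAAT the share was 12 of 44 (27.3%), against 33.8%, and for TATAAA 2 of 44 (4.55%), against 12.4%. A match here describes letters in the window and does not show that a factor binds.

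Among the other collagens outside the basement membrane, the 3 main chains of collagen VI rose in both genotypes. Col6a3 had log2 levels of 4.94, 5.23 and 5.32 in mdx sln+/-, 5.39, 5.04 and 4.88 in mdx, and 3.69 and 3.65 in WT. Both WT libraries lay well under the lowest mdx library of either genotype, and mdx 1 was again the highest of all. Col6a3 (chr1:90765923-90843971, minus strand) rose by 1.49 ± 0.17 in mdx sln+/- (adjusted p = 0.00361) and by 1.44 ± 0.17 in mdx (adjusted p = 0.0037), or 2.82-fold and 2.7-fold (limma). Col6a1 had log2 levels of 6.01, 6.28 and 6.21 in mdx sln+/-, 6.53, 6.05 and 5.92 in mdx, and 5.23 and 5.37 in WT, with no overlap between either mdx genotype and WT. Col6a1 rose by 0.86 ± 0.18 in mdx sln+/- (adjusted p = 0.0187) and by 0.87 ± 0.18 in mdx (adjusted p = 0.0187), and its neighbour Col6a2, 85161 bases away on the same strand of chromosome 10, by 0.81 ± 0.19 in mdx sln+/- (adjusted p = 0.0295) and by 0.91 ± 0.19 in mdx (adjusted p = 0.0215) (limma). Col6a6, a later-described alpha chain of collagen VI, did not pass (0.22 ± 0.16 in mdx sln+/- and 0.42 ± 0.16 in mdx).

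Col14a1, a collagen that sits on fibril surfaces, rose in mdx sln+/- by 1.18 ± 0.32 (limma, adjusted p = 0.0411), and its change in mdx was 0.83 ± 0.32 (adjusted p = 0.114). Its log2 levels were 4.01, 4.16 and 4.58 in mdx sln+/-, 4.13, 3.99 and 3.55 in mdx, and 2.56 and 3.56 in WT. WT 1 and WT 2 stood 1 unit apart, and mdx 3 did not exceed WT 2. The difference of mdx sln+/- from mdx was 0.36 (limma, 95% interval -0.31 to 1.02, unadjusted p = 0.248, adjusted p = 0.735), so the call in mdx sln+/- alone does not show that the genotypes differ. Col22a1, a collagen of tissue junctions such as that of muscle and tendon, was the only gene of the 49 that fell. It reached the filter value of 1 only in the 2 WT libraries. It was thus tested only through the group where it is high. Its log2 levels were 0.21, 0.28 and 0.28 in mdx sln+/-, 0.71, 0.61 and 0.58 in mdx, and 1.04 and 1.14 in WT. The 3 groups did not overlap, with mdx sln+/- lowest, mdx between and WT highest, but every library lay close to the filter value of 1 or under it. Col22a1 fell by 0.83 ± 0.11 in mdx sln+/- (limma, adjusted p = 0.00531) and by 0.46 ± 0.11 in mdx (adjusted p = 0.0319). Of the remaining 6 tested genes in the class, Col16a1, Col8a1 and Col6a6 had positive changes and Col12a1, Col8a2 and Col23a1 negative ones in both genotypes, and none passed.

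**Figure D1:**
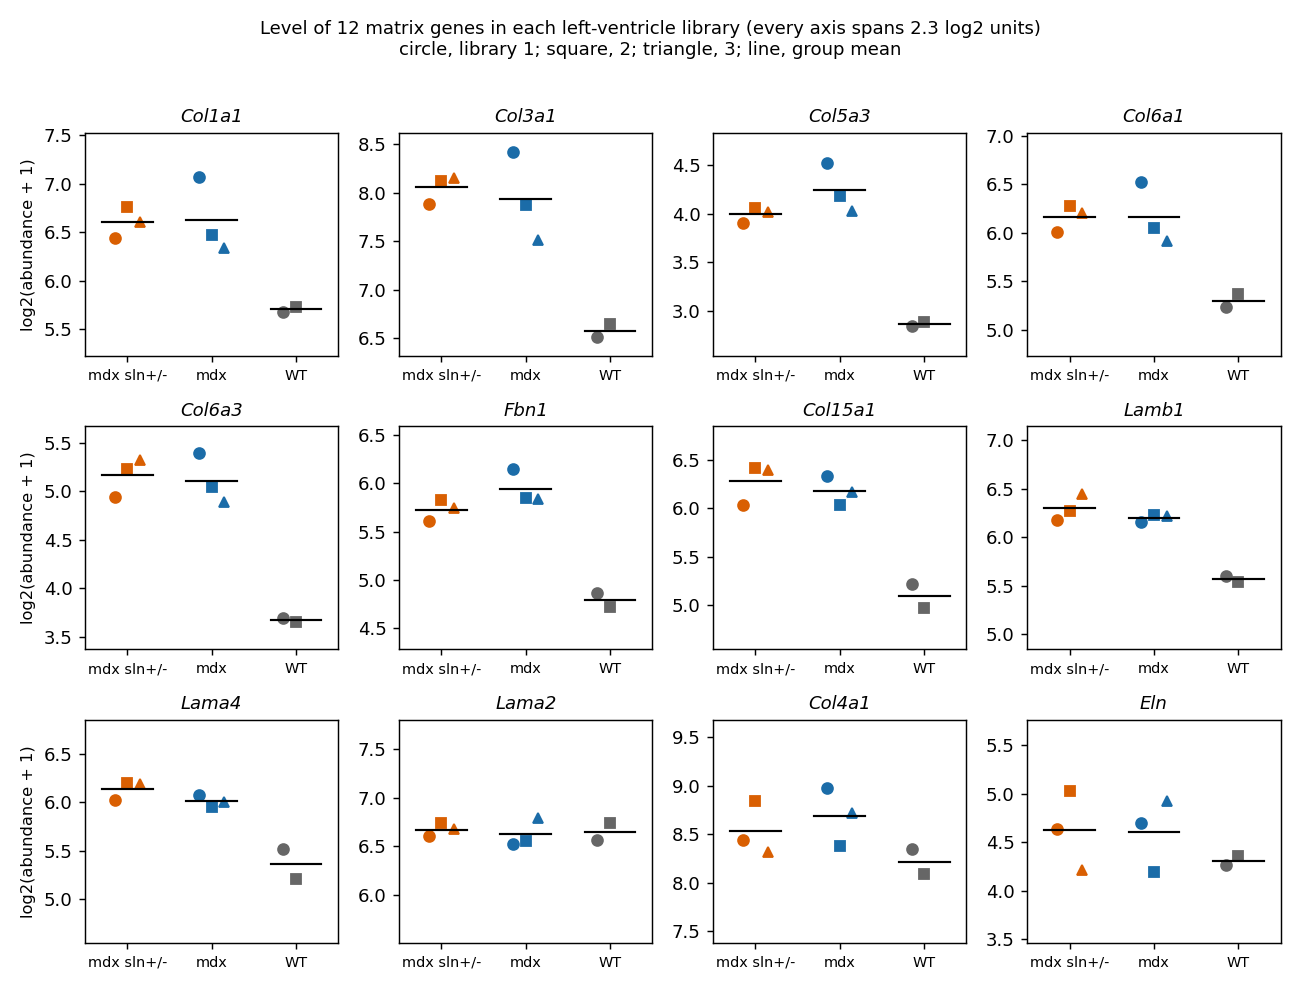
Log2(abundance + 1) of 12 matrix genes in each library, with a circle, square and triangle for libraries 1, 2 and 3 and a line at the group mean; groups run mdx sln+/- (orange), mdx (blue), WT (grey), and every vertical axis spans the same number of log2 units. Col3a1, Col5a3, Col6a3, Fbn1, Col15a1 and Lamb1 keep both mdx genotypes clear of WT, whereas the libraries of the groups overlap in Lama2 and Eln.

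Basement membrane genes split into a few chains that rose and a majority that did not pass: 5 of 20 rose in each comparison with WT, and none fell. Among all genes tested, 11.3% rose and 7.65% fell in mdx sln+/- against WT, and 9.56% and 8.15% in mdx against WT. The median change of the class was 0.23 in mdx sln+/- and 0.24 in mdx. Col15a1, a collagen that anchors the basement membrane to the fibrils outside it, had log2 levels of 6.03, 6.42 and 6.39 in mdx sln+/-, 6.33, 6.03 and 6.17 in mdx, and 5.22 and 4.97 in WT. All 6 mdx libraries of both genotypes stood above both WT libraries. Col15a1 (chr4:47208161-47313167, plus strand) rose by 1.18 ± 0.15 in mdx sln+/- (adjusted p = 0.00483) and by 1.08 ± 0.15 in mdx (adjusted p = 0.00604), or 2.27-fold and 2.12-fold (limma).

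Among the laminins, alpha chains decide which receptors bind and beta and gamma chains complete the trimer. Lama2, the alpha chain of the laminin that surrounds heart and skeletal muscle fibres, had log2 levels of 6.60, 6.74 and 6.68 in mdx sln+/-, 6.52, 6.56 and 6.79 in mdx, and 6.56 and 6.74 in WT. The 3 groups overlapped fully, and its changes were 0.02 ± 0.10 in mdx sln+/- (limma, adjusted p = 0.903) and -0.03 ± 0.10 in mdx (adjusted p = 0.873). Lama4, the alpha chain of laminins in vessel walls, had log2 levels of 6.02, 6.19 and 6.18 in mdx sln+/-, 6.07, 5.95 and 6.01 in mdx, and 5.52 and 5.20 in WT, with every mdx library of either genotype above WT. Lama4 rose by 0.77 ± 0.11 in mdx sln+/- (adjusted p = 0.00626) and by 0.65 ± 0.11 in mdx (adjusted p = 0.011) (limma). Lama5, the other alpha chain of vessel basement membranes, had log2 levels of 6.90, 7.01 and 6.97 in mdx sln+/-, 6.77, 6.69 and 6.74 in mdx, and 5.82 and 6.86 in WT. Its WT libraries stood 1 unit apart, wider than any difference between groups, and it did not pass (0.62 ± 0.26 in mdx sln+/-, adjusted p = 0.13, and 0.39 ± 0.26 in mdx, adjusted p = 0.318, limma). Without the 2 libraries low in Y-linked genes, which leaves WT 1 as the only WT library, it changed by 1.13 in mdx sln+/- and by 0.92 in mdx. WT 2, at 6.86, lay above every mdx library and below every mdx sln+/- library, so these larger changes rest on WT 1.

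Lamb1 had log2 levels of 6.18, 6.27 and 6.44 in mdx sln+/-, 6.15, 6.23 and 6.22 in mdx, and 5.61 and 5.54 in WT. All mdx libraries of both genotypes lay above WT, and mdx sln+/- 3 was the highest. Lamb1 (chr12:31265234-31329644, plus strand) rose by 0.72 ± 0.09 in mdx sln+/- (adjusted p = 0.00463) and by 0.63 ± 0.09 in mdx (adjusted p = 0.00648) (limma). Lamb2, another laminin beta chain, rose by 0.36 ± 0.07 in mdx sln+/- (adjusted p = 0.0163) and by 0.35 ± 0.07 in mdx (adjusted p = 0.0176), smaller changes than those of Lamb1 (limma). Lamc1, the gamma chain shared by most laminins, had changes of 0.25 ± 0.10 and 0.30 ± 0.10 and did not pass (limma, adjusted p = 0.122 in mdx sln+/- and 0.0823 in mdx). Of the epithelial chains, Lamb3 lay lower in every mdx sln+/- library than in WT and Lama3 lay higher, without passing. Lamb3 changed by -0.55 ± 0.23 in mdx sln+/- and by -0.79 ± 0.23 in mdx (limma, adjusted p = 0.133 and 0.0524).

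Collagen IV, the network of all basement membranes, was not called in any chain with all libraries in the fit. Without mdx 2 or without mdx sln+/- 2, Col4a1 was called in mdx against WT. Without mdx sln+/- 2, Col4a4 (-0.29 with all libraries) was called in mdx sln+/- against WT. Col4a1 had log2 levels of 8.44, 8.84 and 8.31 in mdx sln+/-, 8.97, 8.38 and 8.72 in mdx, and 8.35 and 8.09 in WT, and Col4a2, which lies head to head with Col4a1 on chromosome 8, had 8.04, 8.39 and 7.91 in mdx sln+/-, 8.59, 8.0 and 8.25 in mdx, and 8.16 and 7.82 in WT. In both genes the libraries mdx 1 and mdx sln+/- 2 were the highest of their groups, and the lowest mdx sln+/- library lay below the higher WT library. In mdx, every library lay above both WT libraries in Col4a1, if narrowly (8.38 in mdx 2 against 8.35 in WT 1), but not in Col4a2. Col4a1 changed by 0.31 ± 0.21 in mdx sln+/- and by 0.47 ± 0.21 in mdx (limma, adjusted p = 0.319 and 0.162), and Col4a2 by 0.12 ± 0.21 and 0.29 ± 0.21. Among the linkers, perlecan (Hspg2) rose by 0.38 ± 0.11 in mdx sln+/- (adjusted p = 0.0478) and by 0.44 ± 0.11 in mdx (adjusted p = 0.0334) (limma). Nid1 changed by 0.21 ± 0.17 and 0.14 ± 0.17 and Nid2 by 0.33 ± 0.19 and 0.18 ± 0.19, none past the threshold. The linkers were not tested against each other, and in mdx sln+/- the change of Nid2 was near that of Hspg2. Log2 levels of Hspg2 were 8.08, 8.33 and 8.14 in mdx sln+/-, 8.34, 8.10 and 8.30 in mdx, and 7.86 and 7.75 in WT. Col18a1, the relative of Col15a1, changed by 0.02 ± 0.19 in mdx sln+/- and 0.08 ± 0.19 in mdx and did not pass.

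In the elastic fibre group 3 of 11 genes rose in each comparison with WT, and none fell. The shares of all genes tested were 11.3% that rose and 7.65% that fell in mdx sln+/- against WT. In mdx against WT they were 9.56% and 8.15%, so the lack of falls among 11 genes says little. Fbn1, the main microfibril protein of adult tissue, had log2 levels of 5.60, 5.82 and 5.74 in mdx sln+/-, 6.15, 5.84 and 5.84 in mdx, and 4.87 and 4.72 in WT. Both mdx genotypes lay clear of WT, and all mdx sln+/- libraries lay below all mdx libraries. Fbn1 (chr2:125300594-125506385, minus strand) rose by 0.93 ± 0.12 in mdx sln+/- (adjusted p = 0.005) and by 1.15 ± 0.12 in mdx (adjusted p = 0.00309), or 1.91-fold and 2.22-fold (limma). Of its 12128 exon bases, 2442 are shared with Gm9913 on the other strand, and the strand used in counting is not given, so reads of the pair may not be separable.

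Emilin1 and Emilin2 encode glycoproteins between elastin and microfibrils. Emilin2 had log2 levels of 5.62, 5.43 and 5.78 in mdx sln+/-, 4.77, 5.34 and 5.37 in mdx, and 4.38 and 3.66 in WT, and it was higher in every mdx sln+/- library than in any mdx library. Emilin2 rose by 1.59 ± 0.26 in mdx sln+/- (adjusted p = 0.00916) and by 1.14 ± 0.26 in mdx (adjusted p = 0.0254) (limma), the largest change of the 49 genes in mdx sln+/-. Emilin1 rose by 0.75 ± 0.14 in mdx sln+/- (adjusted p = 0.0145) and by 0.79 ± 0.14 in mdx (adjusted p = 0.0131) (limma). Eln, which encodes elastin itself, had log2 levels of 4.63, 5.03 and 4.21 in mdx sln+/-, 4.70, 4.19 and 4.92 in mdx, and 4.26 and 4.36 in WT. The spread within each mdx genotype was wider than the difference from WT, and its changes of 0.32 ± 0.27 and 0.30 ± 0.27 did not pass (limma, adjusted p = 0.434 in mdx sln+/- and 0.475 in mdx). Fbln1, a fibulin of elastic fibres and basement membranes, changed by 0.02 ± 0.17 and 0.12 ± 0.17. Fbln5, which is needed to build elastic fibres in mice, lay lower in all mdx libraries of both genotypes than in WT, at 4.30, 4.31 and 4.28 in mdx sln+/-, 4.14, 4.20 and 4.32 in mdx, and 4.35 and 4.89 in WT, but it did not pass (-0.32 ± 0.15 and -0.40 ± 0.15, limma, adjusted p = 0.164 in mdx sln+/- and 0.106 in mdx).

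Most calls against WT ended in at least 1 of the fits that left out a library, while most changes kept their size. Why these calls ended was not tested. In mdx against WT, the calls of Col5a3, Col6a3, Fbn1, Col15a1 and Lamb1 held when any 1 library was left out. Leaving out WT 2 ended 12 of the 18 calls and leaving out WT 1 ended 9, and either step leaves 1 WT library. Col3a1 then changed by 1.43 ± 0.33 without WT 2 (limma, adjusted p = 0.0595) and by 1.29 ± 0.33 without WT 1 (adjusted p = 0.0523), close to its 1.36 with all libraries. Col1a1 changed by 0.94 without WT 2 (limma, adjusted p = 0.105) and by 0.89 without WT 1 (adjusted p = 0.0901), and Col5a1 by 0.55 in both. Emilin1 (0.69, adjusted p = 0.0802) and Lama4 (0.49, adjusted p = 0.0508) missed the threshold without WT 2 only, and Emilin2 without WT 2 (0.78, adjusted p = 0.132), mdx 2 (1.05, adjusted p = 0.0546) or mdx 3 (1.03, adjusted p = 0.0599) (limma). The calls of Col6a1, Col6a2, Col5a1 and Lamb2 ended when either WT library was left out, at adjusted p of 0.0593 to 0.106, and those of Col22a1, Col27a1, Col5a2 and Hspg2 without 4 to 7 of the 8 libraries, at 0.051 to 0.153. In mdx sln+/- against WT, the calls of Col3a1, Lama4 and Emilin2 held when any 1 library was left out, beside the same 5 genes. That of Col22a1 held too, but the filter was set on all 8 libraries in each of these fits. Col22a1 met it only through both WT libraries together, so without either its test still rested on the library left out. Without mdx sln+/- 3, the library low in Y-linked genes, 9 of the 19 calls ended, and 8 without mdx sln+/- 1, WT 1 or WT 2. Without WT 1, Col5a2 changed by 0.39 in mdx sln+/- and by 0.33 in mdx, and Col14a1 by 0.68 in mdx sln+/-, each smaller by more than 1.5 times, and these were the only called changes moved that far by leaving out 1 library. The directions did not change in any of these fits.

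Name style moved with genotype, so the calls were also made with name style as a term. In mdx sln+/- against WT 8 genes passed then, and in mdx against WT 5 passed, Col15a1, Col5a3, Col6a3, Fbn1 and Lamb1. Among the plain-named libraries alone each mdx genotype is 1 library, and the spread comes from the 2 WT libraries (1 residual degree of freedom) and is assumed to hold for the others. With that assumption 10 passed in mdx sln+/- against WT and 5 in mdx against WT. In these libraries Col6a3 changed by 1.65 in mdx sln+/- and 1.22 in mdx, and Col15a1 by 1.29 and 1.07. Col3a1 changed by 1.58 in mdx sln+/- and 0.94 in mdx there, and Col1a1 by 0.90 and 0.63. Without the 2 libraries low in Y-linked genes, which leaves 1 WT library and 2 residual degrees of freedom, 1 gene passed in mdx sln+/- against WT (Lama5) and 5 in mdx against WT (Col5a2, Col5a3, Col6a3, Lama5 and Lamb1). Col6a3 changed by 1.40 in mdx sln+/- and 1.41 in mdx in that fit, and Fbn1 by 0.85 and 1.07.

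Within each mdx genotype 1 library was often the highest. In the mdx group, mdx 1 was the highest library for 33 of the 49 genes (67.3%), against 32.3% of all genes tested, and for 10 of 11 genes of the other collagens. In the mdx sln+/- group, mdx sln+/- 2 was the highest for 35 of 49 (71.4%), against 35.6% of all genes. The contrast absent from the deposited values ties these counts: a gene high in mdx sln+/- 2 within its group is nearly always low in mdx 2, which was the highest for 4 of 49 genes (8.16%), so the genotypes are not separate evidence here. It bears in the same way on the class means of single mdx libraries. The mean log2 level over the 7 fibrillar genes was 5.21, 5.39 and 5.39 in mdx sln+/-, 5.63, 5.31 and 5.16 in mdx, and 4.44 and 4.52 in WT. That range of the 3 mdx libraries was wider than that of the 3 mdx sln+/- libraries, and both lay above WT. Over the 20 basement membrane genes the mean was 5.28, 5.46 and 5.31 in mdx sln+/-, 5.35, 5.22 and 5.41 in mdx, and 5.14 and 5.18 in WT. The lowest mdx library, mdx 2, thus lay close to WT here, and mdx 3, the lowest of its group for fibrillar genes, was the highest for basement membrane genes.

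**Figure D2:**
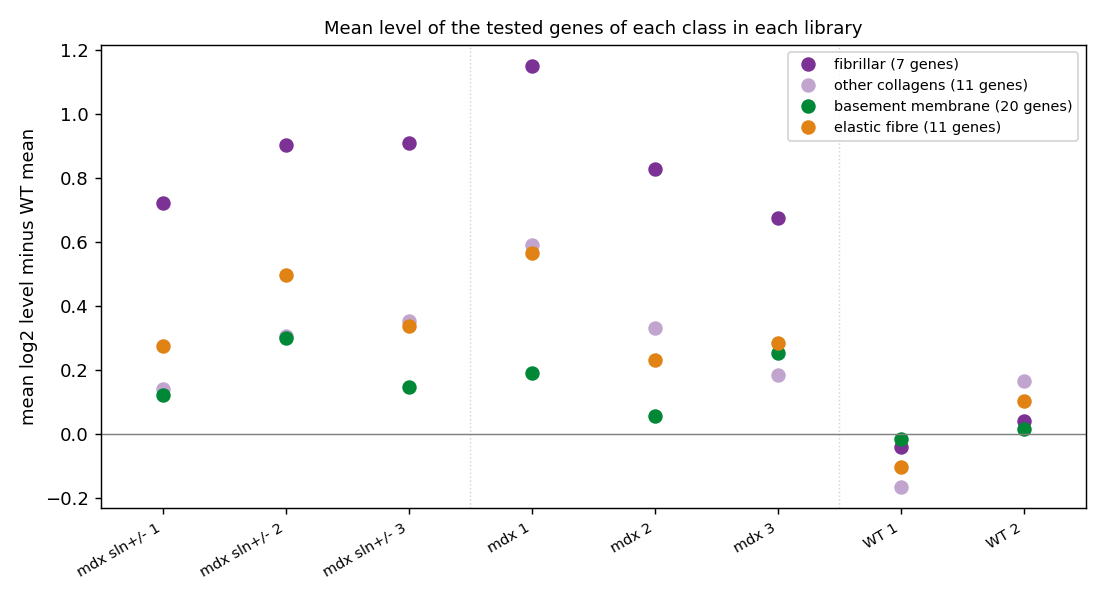
Mean log2 level over the tested genes of each class in each library, as the difference from the mean of the 2 WT libraries; points in 4 colours stand for the classes, and dotted lines part mdx sln+/- (left), mdx (middle) and WT (right). The fibrillar class lies highest above WT in every mdx library of both genotypes, with mdx 1 at the top, and the basement membrane class stays closest to WT in 5 of these 6 libraries.

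None of the 49 genes was called in mdx sln+/- against mdx, where limma called 0 of 13783 genes; at an unadjusted p under 0.05 there was 1 of the 49, Col22a1, and 1186 of all genes. Col22a1 differed by -0.38 (limma, 95% interval -0.61 to -0.14, unadjusted p = 0.00617, adjusted p = 0.578), with every mdx sln+/- library below every mdx library. All of these libraries lay under the filter value of 1. Emilin2 differed by 0.45 (limma, 95% interval -0.09 to 0.99, unadjusted p = 0.0904, adjusted p = 0.617) and Lama4 by 0.12 (limma, 95% interval -0.11 to 0.35, unadjusted p = 0.245, adjusted p = 0.733). Fbln2, a fibulin of vessel and basement membrane matrix, differed by -0.23 (limma, 95% interval -0.49 to 0.02, unadjusted p = 0.066, adjusted p = 0.601). Besides Emilin2 and Col22a1, the mdx genotypes did not overlap in Fbn1 and Col6a6 (lower in mdx sln+/-) and in Lama3 and Lama5 (higher), 3 genes in each direction, against 16.8% of all genes that were higher without overlap and 8.0% that were lower. Intervals for the main collagens were wide, with Col1a1 at -0.02 (limma, 95% interval -0.45 to 0.42, unadjusted p = 0.921, adjusted p = 0.983) and Col3a1 at 0.12 (limma, 95% interval -0.38 to 0.62, unadjusted p = 0.596, adjusted p = 0.889). Those for Lamb2 and Lama2 were narrower, at -0.14 to 0.15 and -0.17 to 0.27. A p above the threshold does not show that the genotypes are alike.

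Most of these genes were carried by 1 or a few annotated transcripts, whose mean linear abundances are given with no test of their own. The abundance of Col3a1-201 was 240.1 ± 24.1 in mdx sln+/-, against 228 ± 76.0 in mdx and 86.3 ± 5.56 in WT (each ± SD over the libraries), or 90.3%, 90.3% and 91.2% of the gene. Its share was thus close in the 3 groups while its level moved with the gene. Col5a3, Col6a1, Fbn1 and Emilin2 were measured through a single transcript each. Lama2 was split between Lama2-201, at 60.4 ± 3.97 in mdx sln+/-, 59.1 ± 6.08 in mdx and 64.5 ± 12.8 in WT, and Lama2-208, at 39.4 ± 1.29, 37.7 ± 4.19 and 33.9 ± 3.96 in the same order. In Eln the shares moved more: Eln-204 made up 20.7% of the gene in mdx sln+/-, 20.8% in mdx and 9.66% in WT, and Eln-201 made up 45.7%, 45.0% and 59.9%.

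Genes that process these proteins were read from 3 further lists. Of all genes tested, 11.3% rose and 7.65% fell in mdx sln+/- against WT, and 9.56% and 8.15% in mdx against WT. Of 22 tested genes for collagen folding and processing, 8 rose in mdx sln+/- against WT and none fell, and in mdx against WT 8 rose and 1 fell; the medians were 0.24 and 0.21. Serpinh1, the chaperone that holds procollagen in the endoplasmic reticulum, had log2 levels of 7.49, 7.62 and 7.53 in mdx sln+/-, 7.63, 7.57 and 7.74 in mdx, and 6.53 and 6.40 in WT. Every mdx library of either genotype stood above WT. Serpinh1 rose by 1.08 ± 0.08 in mdx sln+/- (adjusted p = 0.000975) and by 1.18 ± 0.08 in mdx (adjusted p = 0.000701), and Pcolce, which speeds the removal of the procollagen C-propeptide, by 0.76 ± 0.13 in mdx sln+/- (adjusted p = 0.0102) and by 0.91 ± 0.13 in mdx (adjusted p = 0.00622) (limma). Adamts3, a protease of the procollagen N-propeptide, fell in mdx (by 0.79 ± 0.21, limma, adjusted p = 0.0398) and changed by -0.70 ± 0.21 in mdx sln+/- (adjusted p = 0.055). It reached the filter value of 1 only in the 2 WT libraries, at log2 levels of 1.22 and 1.93. Adamts3 was thus tested only through the group where it is high.

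Of 11 tested receptors of collagen and laminin, 5 rose in mdx sln+/- and 4 in mdx, and none fell. Among all genes tested, 11.3% rose in mdx sln+/- and 9.56% in mdx. Itga1, the alpha subunit of a collagen-binding integrin, rose by 0.86 ± 0.11 in mdx sln+/- (adjusted p = 0.00483) and by 0.75 ± 0.11 in mdx (adjusted p = 0.00703), and Bcam, a receptor of laminin alpha 5 chains, by 0.52 ± 0.08 in mdx sln+/- (adjusted p = 0.00859) and by 0.57 ± 0.08 in mdx (adjusted p = 0.00665) (limma). Itga6, a laminin-binding integrin subunit, and Mrc2, a receptor for collagen uptake, also rose in both genotypes, and Itga11 rose in mdx sln+/-. Dag1, which encodes the dystroglycan bound by Lama2 laminin, changed by -0.12 ± 0.07 in mdx sln+/- and -0.12 ± 0.07 in mdx and did not pass.

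Of 16 tested elastic fibre assembly genes, 1 rose and 1 fell in each comparison with WT. Neither count exceeds the shares of all genes tested, 11.3% and 7.65% in mdx sln+/- and 9.56% and 8.15% in mdx. Loxl1, a crosslinking enzyme of elastin, rose by 0.82 ± 0.19 in mdx sln+/- (adjusted p = 0.0286) and by 1.14 ± 0.19 in mdx (adjusted p = 0.0112) (limma). Lox, the crosslinking enzyme of collagen and elastin, fell in mdx sln+/- (by 1.07 ± 0.25, limma, adjusted p = 0.0287) and changed by -0.81 ± 0.25 in mdx (adjusted p = 0.0649). Mfap3 fell in mdx (by 0.38 ± 0.10, limma, adjusted p = 0.0418). In mdx sln+/- against mdx none of the genes in the 3 lists passed.

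**Figure D3:**
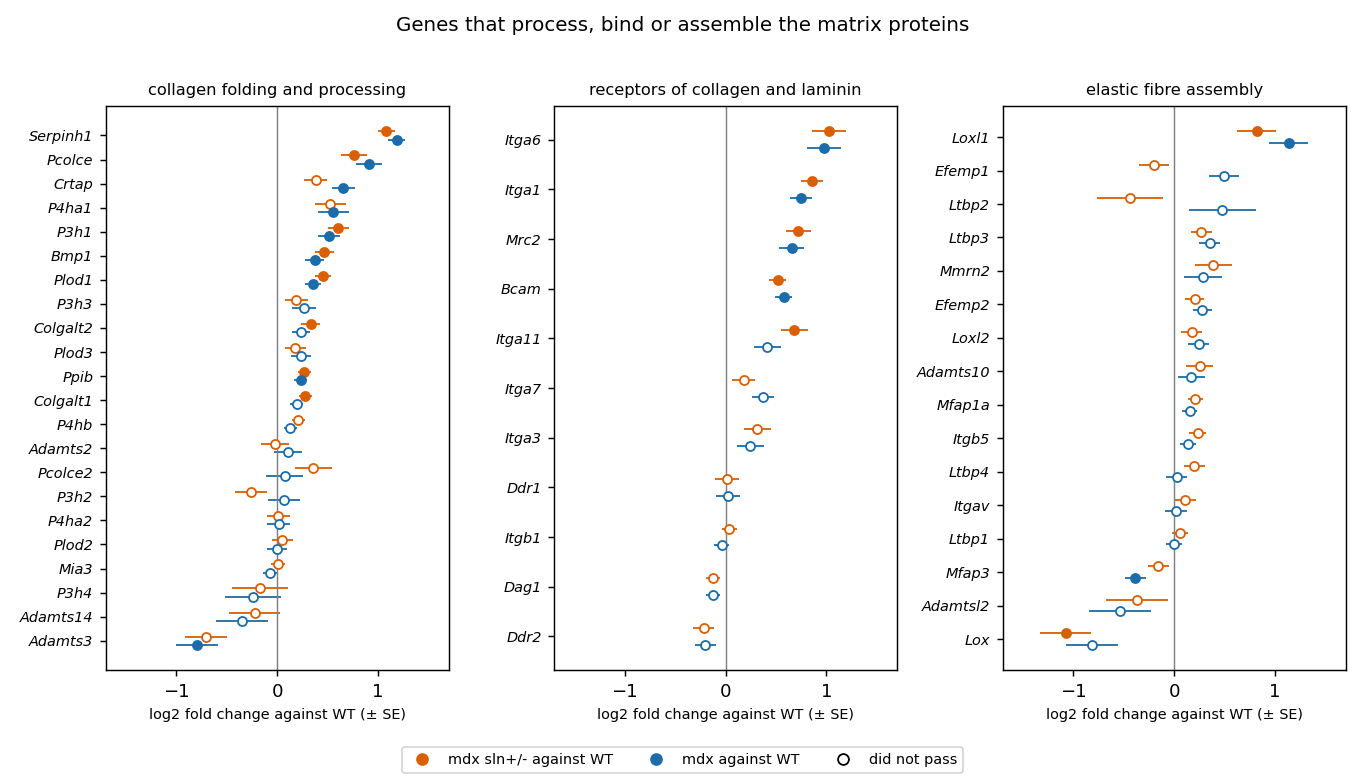
Log2 fold change (± SE from limma) against WT of genes that fold and process collagen (left), bind collagen or laminin (middle) or assemble elastic fibres (right), in mdx sln+/- (orange) and mdx (blue), with filled circles for genes that passed the 0.05 threshold. Among the genes filled in both genotypes, all above WT, are Serpinh1, Pcolce, Itga6, Itga1, Mrc2, Bcam and Loxl1.

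Whole-tissue RNA does not separate more matrix-producing cells from more RNA per cell. Beside the marker counts below, 11.3% of all genes tested rose and 7.65% fell in mdx sln+/- against WT. In mdx against WT these shares were 9.56% and 8.15%. Of 14 fibroblast markers, 1 rose and 1 fell in mdx sln+/- (Ctgf and Comp) and 1 rose in mdx (Meox1), and their summed linear abundance was 1906 to 2019 in mdx sln+/-, 1832 to 1999.5 in mdx and 1558 to 2307 in WT. The WT libraries thus bracketed both mdx genotypes in this sum. High genes weigh most in it, such as Gsn, with log2 levels of 9.38 and 10.16 in WT. The median change of the 14 markers was 0.06 in mdx sln+/- and 0.13 in mdx. Of 11 macrophage markers, 5 rose in mdx sln+/- and 7 in mdx, with sums of 307 to 361 in mdx sln+/-, 296 to 369 in mdx and 232 to 244 in WT. Smooth muscle and pericyte sums were 893 to 1018 in mdx sln+/-, 835 to 1013 in mdx and 636 to 751 in WT, with 4 of 9 markers higher and 1 lower in mdx sln+/- and 3 higher in mdx. The marker called lower was the smooth muscle gene Cnn1 (-0.83 in mdx sln+/-, -0.27 in mdx). Myh11 changed by -0.47 and 0.03 and Tagln by -0.97 and -0.27 in that order, and neither passed. The markers called higher were thus others of this pooled list. Endothelial sums were 1180.2 to 1294 in mdx sln+/-, 1136 to 1259 in mdx and 1068 to 1229.8 in WT, and of 10 markers 3 rose in mdx sln+/- and 2 rose and 1 fell in mdx. None of 10 cardiomyocyte markers passed. No tested Schwann cell (2) or mesothelial and valve (1) marker passed. The part of these cell types in the matrix changes was not tested.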

How the data were processed

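Left ventricle RNA was sequenced from paired ends, per the labels. The submitters' processing notes name STAR 2.6.1, mm10, Partek and limma. The authors deposited log2 values for 33027 transcripts in 16 columns, an r1 and an r2 column per library, per the file headers. The values were read as log2(abundance + 1) because none lies under 0. The meaning of r1 and r2, the strand of counting and any division by length are not given in the sources used here. Since the values are not counts, neither depth nor its precision is known; linear abundances summed to 780262 to 924253 per library.

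The r1 and r2 columns (correlation 0.981 to 0.987) were averaged, turned back to linear values, summed over the transcripts of a gene and put on the log2(value + 1) scale. The 13783 of 14578 genes that reached 1 in 2 or more libraries were tested. limma 3.58.1 (R 4.3.3) was fitted to all 8 libraries with a term for genotype and a term for the contrast absent from the deposited values: over both mdx genotypes the mean of libraries 2 equals that of libraries 1 and 3 within 5.12e-05 for every transcript. That left 4 residual degrees of freedom, with a prior that follows mean expression. Adjustment was Benjamini-Hochberg over all genes of a comparison. The fit was tested on simulated data. Python 3.11.15, pandas 2.3.3, numpy 2.4.6 and matplotlib 3.10.9 prepared values and figures.

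Gene positions come from GENCODE M21 (GRCm38/mm10), which 116 of 118 transcripts matched in start and, once the deposited end was lowered by 1 base, in end. Upstream sequences are from RefSeq (GRCm38.p6), the 4 printed windows overlap no annotated exon, whereas 26 of the 44 windows in the motif counts do. The rule for named genes takes every called gene of the 53, Col1a2, Col4a1, Col4a2, Lama2, Lamc1, Nid1, Eln and Fbln1 in any case, the 2 highest and 2 lowest by unadjusted p where fewer than 4 were called, and the 2 smallest adjusted p of each further list; other named genes were chosen after their values were seen. The 53 genes and all lists were chosen with earlier results of these data known. Alternatives were other scalings, filters, pseudocounts, columns and model terms and leaving out each library. Values of 1 of the 53 genes are not reported here, though it is included in the counts.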

Additional observations from a re-analysis of the deposited data

How the results depend on the processing

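Every change called against WT kept its direction in all alternatives that gave it a value. In all alternatives 0 of the 53 genes, and 0 of all genes, were called in mdx sln+/- against mdx. Calls against WT depended on the model. With genotype alone, which counts 1 residual degree of freedom too many, 3996 genes were called in mdx sln+/- against WT and 3798 in mdx against WT, beside 2607 and 2440 in the model used. With name style as a term 8 of the 53 and 503 of all genes were called in mdx sln+/- against WT, and 5 and 360 in mdx against WT. With plain-named libraries only (1 residual degree of freedom) these were 10 and 349, and 5 and 124. Without the 2 libraries low in Y-linked genes they were 1 and 148, and 5 and 242. With only the 2 groups compared in the fit, 18 and 2770 were called in mdx sln+/- against WT, and 11 and 999 in mdx against WT. Leaving out 1 library gave 10 to 19 of the 53 and 819 to 3034 of all genes in mdx sln+/- against WT, and 8 to 20 and 807 to 2340 in mdx against WT, lowest without WT 2. Where 1 library of a group was left, its spread was taken from the other groups. The cause of these shifts was not tested.

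The labels do not say that replicate numbers pair the libraries, and the values could not settle it. Deviations from the group mean correlated at -0.26, -0.996 and -0.31 between mdx sln+/- and mdx libraries 1, 2 and 3, but the removed contrast fixes the value for libraries 2, follows that number in both genotypes and bears on the other values too. With the number as a replicate block beside the removed contrast, 14 of the 53 and 1333 of all genes were called in mdx sln+/- against WT, and 13 and 1336 in mdx against WT. With the block but not that contrast, these were 17 and 2363, and 17 and 2397. A coding of the removed contrast, with WT beside libraries 1 and 3, was added after seeing the data and called 16 and 18 of the 53. The other settings (median-ratio scaling, no filter, a mean of at least 5, a pseudocount of 0.1, r1 or r2 alone, the highest transcript of each gene, a constant prior) called 15 to 19 of the 53 in mdx sln+/- against WT and 16 to 19 in mdx against WT. Depth is unknown, so what it limits could not be told.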
